A study of Mus musculus with 15 samples.

Results

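Inflammatory signalling in macrophages switches on its own inhibitors, and 10 such genes were followed here through stimulation of mouse bone marrow-derived macrophages (BMDMs) with RANKL or with LPS. They were taken by name from the table of gene levels: *Tnfaip3*, *Tnip1*, *Tnip3*, *Irak3* and *Tollip*, which act on Toll-like receptor (TLR) and NF-κB signalling, *Socs1*, *Socs3* and *Cish* of the suppressor of cytokine signalling (SOCS) family, and the MAP kinase phosphatase genes *Dusp1* and *Dusp2*. All 10 were among the 20089 complete genes of the table and among the 11743 tested. Names, not a cut on values, defined the group, though the names were chosen with earlier results of these data known.

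RNA was sequenced from 15 samples in 5 groups of 3. BMDMs of wild-type C57BL/6 mice were first grown in M-CSF, the growth factor that keeps macrophages and their precursors alive, for 3 days according to the sample labels, and M-CSF was present in all 5 groups. Control cells received nothing further. The other groups received RANKL, the cytokine that turns these cells into osteoclasts, or LPS, the bacterial ligand of TLR4, each at 100 ng/mL and for 4 h or 3 d. The study used the series to separate genes that respond to RANKL from genes that respond to LPS as well. No samples with M-CSF alone were taken at 3 d. A difference of a 3 d group from control or from a 4 h group therefore holds both the stimulus and the longer culture. These cannot be told apart. The labels state neither the age nor the sex of the mice behind these samples. Nothing in the labels says that the 3 samples of a group came from separate animals or cultures, so the p-values measure only the spread between these samples.

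Signalling from TLRs, the IL-1 receptor and the TNF receptor runs through ubiquitin chains and kinases to NF-κB and the MAP kinases, while cytokine receptors signal through JAK kinases and STAT factors. The inhibitors act on these steps: A20 (*Tnfaip3*) edits ubiquitin chains and is held on them by ABIN proteins (*Tnip1*, *Tnip3*), IRAK-M (*Irak3*) blocks the receptor-proximal IRAK complex, SOCS proteins bind cytokine receptors or JAKs, and the DUSP phosphatases inactivate MAP kinases. Many are themselves targets of the pathway that they limit, and LPS-treated macrophages are a classic place to see them induced. RANK, the receptor for RANKL, also signals to NF-κB and the MAP kinases through TRAF6.

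Levels are given as FPKM, fragments scaled to transcript length and to the mapped total, so levels of different genes can be set side by side per length. The 15 libraries held 18306184 to 20330207 fragments on listed genes, and the values of the 10 inhibitors rested on 41 fragments in the lowest sample (*Socs1* and *Cish*) to 38128 in the highest (*Tnfaip3*). Macrophage markers were present in every group (8 genes, summed level of 7382 to 9107 FPKM in control samples), but markers of granulocyte precursors were also high in control (9 genes, 7912 to 24340 FPKM), less so in RANKL 3 d (1849 to 7451 FPKM) and lowest in LPS 3 d (151.6 to 1816 FPKM). Summed levels stayed at or below 66.5 FPKM in every sample for markers of mast cells and basophils, 38.4 for T and NK cells, 26.0 for dendritic cells, 21.3 for B cells and 14.6 for erythroid cells. In such bulk samples, fewer cells of a type and less RNA per cell cannot be told apart. Replicate 3 of LPS 3 d stood apart from the other two of its group, with a summed macrophage marker level of 17260 FPKM against 5911 and 7708, and results of the inhibitors and counts of the related lists in LPS 3 d are therefore also given without it. Osteoclast markers rose with RANKL as a check of the labels: *Ctsk*, the bone-resorbing protease, was at 532 to 1661 FPKM in RANKL 3 d and 15.5 to 32.9 in control. In LPS 4 h, *Il6* was at 262 to 279 FPKM and in control at 0.329 to 0.734, and the 8 LPS response markers summed to 11300 to 12330 FPKM against 80.0 to 292 in control.

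A gene was counted as changed when limma on log2(FPKM + 0.1) gave a fold above 1.5 or below 0.66 and a Benjamini-Hochberg adjusted p under 0.05 over all genes tested. LPS 4 h raised 9 of the 10 inhibitors above control and lowered none, where 8.43% of all tested genes rose and 39.7% fell. LPS 3 d left 4 of 10 above control and none below (13% and 14.4% of all genes). Without its replicate 3 it was 6 and none, a count to which these shares, from the fit of all 15 samples, do not apply. RANKL changed none of 10 at 4 h, where 0.111% of all genes were higher and 0.00852% lower. At 3 d it left 1 higher and 1 lower, where 16.6% and 7.54% of all genes were. These RANKL counts do not stand apart from the shares of all genes. The median log2 difference of the 10 inhibitors from control was 0.09 in RANKL 4 h, -0.12 in RANKL 3 d, 3.69 in LPS 4 h and 0.46 in LPS 3 d, beside 0.00, 0.16, -0.52 and 0.08 for all tested genes. The shift of the median gene in LPS 4 h bears on the scale. With every sample set to the same median gene (the centred scale), 1871 genes were higher and 1529 lower in LPS 4 h, against 990 and 4660 on the deposited scale, and all 9 inhibitors were higher on both scales. For RANKL 3 d the same centring gave 1167 higher and 1428 lower genes against 1951 and 886. These 4 comparisons share their control samples.

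**Figure D1:**
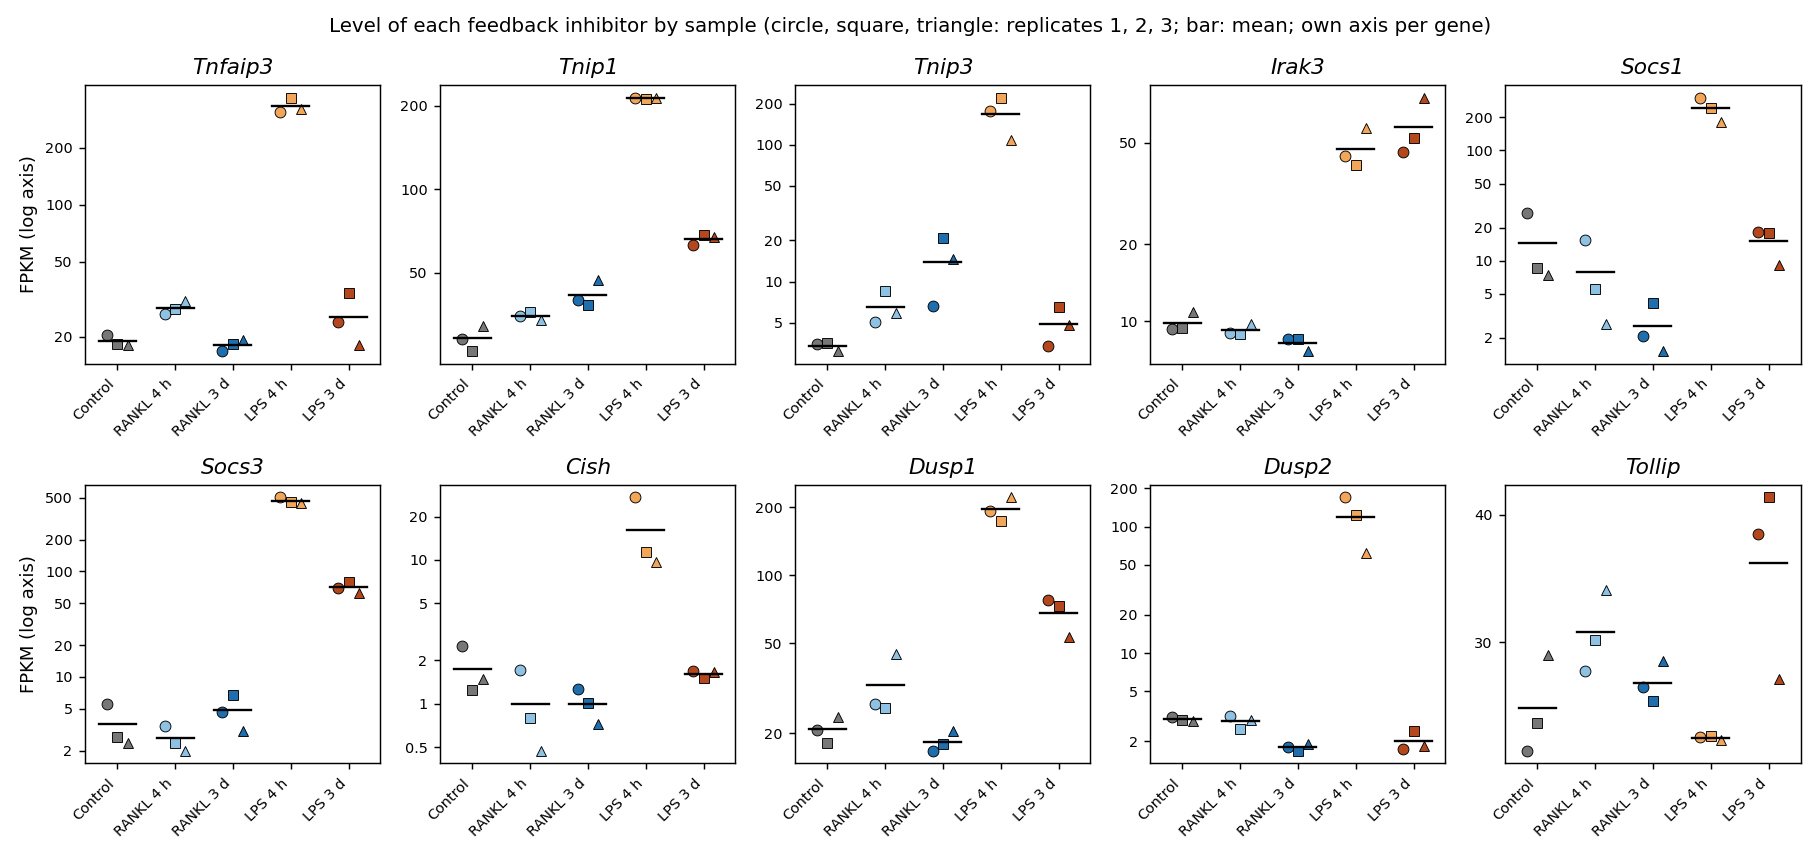
FPKM of each inhibitor (log axis, separate for each gene) in the 3 samples of each of the 5 groups, with symbols for the replicate number and a bar for the group mean. In 9 of 10 panels, all but *Tollip*, the 3 LPS 4 h samples lie above every control sample. No share of all tested genes with this arrangement is given for LPS 4 h, where 8.43% were called higher. *Irak3* is as high in LPS 3 d, at 45.8 to 75.2 FPKM, while *Dusp2* in LPS 3 d, at 1.74 to 2.43 FPKM, is below control.

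*Tnfaip3* lies on chromosome 10 from 19000910 to 19015657 on the minus strand of GRCm38 (GENCODE M21), with 9 exons in its longest coding transcript, and no other annotated gene overlaps it. Control samples had 20.5, 18.2 and 18.01 FPKM, and LPS 4 h samples had 311, 369 and 323 FPKM. All 3 LPS samples were thus far above control, and *Tnfaip3* was one of the most abundant inhibitors in this group. The log2 difference was 4.14 (SE 0.17, adjusted p = 1.49e-09 by limma), a 17.7-fold ratio of means. After 3 d of LPS, *Tnfaip3* was back at 24.0, 34.0 and 18.1 FPKM, overlapping control, with a log2 difference of 0.38 (adjusted p = 0.109 by limma). Without replicate 3 of LPS 3 d, the lowest of them, the difference was 0.60 and passed the test (adjusted p = 0.00517 by limma). RANKL 4 h samples had 26.2, 28.1 and 31.0 FPKM, all above control, but the log2 difference of 0.58 did not pass adjustment (unadjusted p = 0.00487, adjusted p = 0.436 by limma). With RANKL for 3 d the gene was at 16.8, 18.4 and 19.2 FPKM and overlapped control.

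The promoter of *Tnfaip3* is shown because it holds the most kinds of matches among the 10, with those of its partners *Tnip1* and *Tnip3* for comparison. These are RefSeq windows of 300 bases on GRCm38.p6, 250 before and 50 after the start site, at chr10:19015361-19015660 (minus strand), chr11:54962891-54963190 (minus) and chr6:65590148-65590447 (plus), read in the direction of the gene. Capitals mark matches to the NF-κB consensus on either strand and, in *Tnfaip3* only, the AP-1 motif TGANTCA.
Tnfaip3: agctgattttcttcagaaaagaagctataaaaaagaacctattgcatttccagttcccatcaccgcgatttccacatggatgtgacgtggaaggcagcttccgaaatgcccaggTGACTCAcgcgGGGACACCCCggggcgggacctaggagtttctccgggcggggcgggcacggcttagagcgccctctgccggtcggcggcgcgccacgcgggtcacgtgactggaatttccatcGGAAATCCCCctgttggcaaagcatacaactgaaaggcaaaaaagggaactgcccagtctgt
Tnip1: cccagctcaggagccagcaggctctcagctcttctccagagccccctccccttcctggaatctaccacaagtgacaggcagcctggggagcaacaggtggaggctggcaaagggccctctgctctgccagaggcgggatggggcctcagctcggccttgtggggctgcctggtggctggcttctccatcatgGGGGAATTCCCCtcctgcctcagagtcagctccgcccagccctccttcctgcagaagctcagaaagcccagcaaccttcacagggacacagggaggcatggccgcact
Tnip3: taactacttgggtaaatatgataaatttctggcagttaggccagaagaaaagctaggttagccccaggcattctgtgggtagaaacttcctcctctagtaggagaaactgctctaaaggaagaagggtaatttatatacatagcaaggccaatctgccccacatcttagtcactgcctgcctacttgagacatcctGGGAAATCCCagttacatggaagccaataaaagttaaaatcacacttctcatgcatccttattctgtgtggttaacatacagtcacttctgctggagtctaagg
Positions are counted from the first transcribed base as 1, with -1 before it. In *Tnfaip3* the NF-κB matches began at -125 and -12 and the AP-1 match at -136. The run in *Tnip1* holds overlapping matches from -58, and the match in *Tnip3* began at -54. These 3 inhibitors were the only ones of the 10 with an NF-κB match in a window, and 4.51% of all 32851 windows had one. A second RefSeq window of *Tnfaip3* had none of the motifs searched. A match is a description of letters, and binding was not measured.

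*Tnip1* (chromosome 11, 54910785 to 54962917, minus strand, 19 exons) encodes ABIN-1, and its coordinates overlap a processed pseudogene, *Gm12230*, that shares no exonic base with it. It was the most even of the induced genes: control samples had 28.9, 26.1 and 32.1 FPKM, LPS 4 h samples 213, 211 and 214, and LPS 3 d samples 62.9, 68.2 and 67.2. The 3 groups did not overlap. The log2 difference from control was 2.88 (SE 0.10, adjusted p = 4.44e-10 by limma) at 4 h and 1.19 (SE 0.10, adjusted p = 5.76e-06) at 3 d, and 1.18 at 3 d without replicate 3. In RANKL 3 d the gene was at 39.8, 38.2 and 47.2 FPKM, again above all control samples, and the log2 difference of 0.52 passed the test of p (adjusted p = 0.00213 by limma) but not the fold threshold. Without replicate 3 of control it was 0.60 and counted as changed (adjusted p = 0.00212 by limma), and on the centred scale it was 0.30 (adjusted p = 0.061). RANKL 4 h samples, at 34.9, 36.2 and 33.8 FPKM, also lay above control, with a log2 difference of 0.27 (adjusted p = 0.724 by limma).

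*Tnip3* (chromosome 6, 65525313 to 65634040, plus strand, 11 exons), which encodes ABIN-3, was the inhibitor that RANKL raised. It was scarce in control, at 3.47, 3.56 and 3.10 FPKM. In RANKL 3 d it was at 6.63, 20.7 and 14.6 FPKM, all above control but wide apart among themselves. The log2 difference was 1.87 (SE 0.37, adjusted p = 0.00223 by limma), a 4.14-fold ratio of means, and it passed under every alternative run for this comparison, with log2 values of 1.52 to 2.33 when 1 replicate was left out. At 4 h RANKL samples had 5.08, 8.51 and 5.88 FPKM, each above control, with a log2 difference of 0.89 that did not pass adjustment (unadjusted p = 0.0308, adjusted p = 0.882 by limma). LPS 4 h gave far higher levels of 176, 221 and 109 FPKM, a log2 difference of 5.54 (SE 0.37, adjusted p = 7.3e-08 by limma). By 3 d of LPS, 3.36, 6.54 and 4.80 FPKM remained, overlapping control (log2 difference 0.48, adjusted p = 0.336 by limma, and 0.47 without replicate 3). The sum of 10 stromal markers also rose in RANKL 3 d, from 145 to 320.7 FPKM in control to 403.7 to 1895. Of the 10, 7 counted as higher, and 2 on the centred scale, while *Dcn* and *Lum* had lower means than in control. *Col1a1* and *Col1a2* were highest in replicate 1 (692 and 532 FPKM), where *Tnip3* was lowest. The part of stromal cells in the *Tnip3* result was not tested.

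*Irak3* (chromosome 10, 120141648 to 120202130, minus strand, 12 exons) encodes IRAK-M and kept its level under LPS. Control samples had 9.32, 9.42 and 10.9 FPKM. LPS 4 h samples had 44.3, 41.0 and 57.2 FPKM, and LPS 3 d samples 45.8, 52.3 and 75.2 FPKM. Both LPS groups lay above every control sample and overlapped each other. The log2 difference from control was 2.24 (SE 0.17, adjusted p = 2.01e-07 by limma) at 4 h and 2.51 (SE 0.17, adjusted p = 8.59e-07) at 3 d, and 2.30 at 3 d without replicate 3, its highest sample. RANKL samples had 8.96, 8.90 and 9.74 FPKM at 4 h and 8.50, 8.48 and 7.64 at 3 d. Those of 3 d were all below control, with a log2 difference of -0.26 that did not pass the test (adjusted p = 0.252 by limma). Exons of *Irak3* share 220 bases with the opposite-strand genes *Gm47009* and *Tmbim4*. Strand use in counting is not given in the sources used here, so reads from that stretch cannot be told apart.

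*Tollip* (chromosome 7, 141874813 to 141918507, minus strand, 6 exons) encodes an adaptor that binds IRAK proteins and ubiquitin, and it was the member that changed least. Its samples lay between 23.5 and 41.6 FPKM in all 5 groups. Control had 23.5, 25.0 and 29.1 FPKM and LPS 4 h had 24.2, 24.3 and 24.0, a log2 difference of -0.09 (SE 0.14, adjusted p = 0.598 by limma). Relative to the median gene, which was lower in LPS 4 h, the difference was 0.48 with an adjusted p of 0.00334 by limma, so its direction turned with the scale. LPS 3 d samples had 38.3, 41.6 and 27.6 FPKM, with a log2 difference of 0.45 (adjusted p = 0.0223 by limma) that did not reach the fold threshold. Without replicate 3, the lowest, it was 0.63 and counted as changed (adjusted p = 0.000674 by limma). RANKL samples had 28.1, 30.2 and 33.7 FPKM at 4 h and 27.1, 26.3 and 28.7 at 3 d, both overlapping control. None of the motifs searched matched in its promoter window.

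The SOCS genes are shown next with their promoters, since each held a match to a motif of cytokine and interferon signalling: the STAT motif TTCNNNGAA in *Socs3* and *Cish*, and the interferon-stimulated response element (GAAA, 2 bases, GAAA) in *Socs1*. Matches are in capitals. The windows, from RefSeq on GRCm38.p6, are chr16:10785487-10785786 (minus strand) for *Socs1*, chr11:117969317-117969616 (minus) for *Socs3* and chr9:107296409-107296708 (plus) for *Cish*.
Socs1: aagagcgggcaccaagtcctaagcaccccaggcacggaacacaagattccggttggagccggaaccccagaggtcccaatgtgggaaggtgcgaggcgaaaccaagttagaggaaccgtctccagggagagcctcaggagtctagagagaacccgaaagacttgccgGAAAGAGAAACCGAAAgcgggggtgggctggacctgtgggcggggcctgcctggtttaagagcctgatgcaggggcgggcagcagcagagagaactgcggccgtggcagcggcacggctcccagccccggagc
Socs3: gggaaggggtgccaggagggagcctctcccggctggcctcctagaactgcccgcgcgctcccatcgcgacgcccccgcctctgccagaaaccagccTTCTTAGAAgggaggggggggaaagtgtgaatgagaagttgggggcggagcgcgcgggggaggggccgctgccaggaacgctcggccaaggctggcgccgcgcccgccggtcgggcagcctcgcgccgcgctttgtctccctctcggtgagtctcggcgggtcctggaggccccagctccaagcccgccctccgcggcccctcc
Cish: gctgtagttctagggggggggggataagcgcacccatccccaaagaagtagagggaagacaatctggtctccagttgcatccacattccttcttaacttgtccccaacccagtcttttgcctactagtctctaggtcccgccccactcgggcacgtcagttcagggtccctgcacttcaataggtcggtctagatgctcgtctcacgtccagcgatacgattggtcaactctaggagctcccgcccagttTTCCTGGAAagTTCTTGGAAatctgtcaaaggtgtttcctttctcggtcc
The *Socs1* run holds 2 overlapping matches, which began at -83 and -77. The STAT match of *Socs3* began at -154, and those of *Cish* at 1 and 12. STAT matches occurred in 3 of the 10 inhibitors (the other was *Tnip1*, at -199) and in 8.3% of all windows, and response element matches in 1 of 10 and 3.44% of all windows.

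*Socs3* (chromosome 11, 117966079 to 117970047, minus strand, 2 exons), a brake on receptors that use gp130 such as the IL-6 receptor, showed the largest fold of the 10. Control samples had 5.60, 2.72 and 2.38 FPKM and LPS 4 h samples 503, 457 and 442 FPKM. The lowest LPS sample was far above the highest control sample, and the mean ratio was 131-fold (log2 difference 7.09, SE 0.31, adjusted p = 2e-09 by limma). It stayed high at 3 d, at 69.6, 79.6 and 62.5 FPKM, with a log2 difference of 4.36 (SE 0.31, adjusted p = 1.17e-06 by limma) and 4.45 without replicate 3. RANKL samples had 3.46, 2.38 and 1.996 FPKM at 4 h and 4.68, 6.80 and 3.06 at 3 d. Both groups overlapped control, and the log2 differences of -0.37 and 0.46 did not pass the test (adjusted p = 1.0 and 0.274 by limma). Without replicate 1 of control, its high sample, the RANKL 3 d difference was 0.83 and passed (adjusted p = 0.0495 by limma).

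*Socs1* (chromosome 16, 10782240 to 10785536, minus strand, 2 exons), a brake on interferon receptor signalling, rose with LPS at 4 h and was lower than control with RANKL at 3 d. LPS 4 h samples had 302, 245 and 181 FPKM against 27.3, 8.51 and 7.39 in control, a log2 difference of 4.30 (SE 0.59, adjusted p = 4.22e-05 by limma). LPS 3 d samples, at 18.1, 17.9 and 9.08 FPKM, lay below replicate 1 of control but above its replicates 2 and 3. The difference did not pass the test (log2 difference 0.26, adjusted p = 0.766 by limma, and 0.58 without replicate 3). With the samples numbered 2 and 3 alone it was 0.68 (adjusted p = 0.374 by limma). RANKL 3 d samples had 2.06, 4.11 and 1.52 FPKM, all below the lowest control sample. The log2 difference was -2.30 (SE 0.59, adjusted p = 0.0104 by limma). With the replicate number as a block it had an adjusted p of 0.00116 by limma. That fit includes LPS 3 d, which the numbers did not pair. On the centred scale the difference was -2.52 (adjusted p = 0.00872 by limma). The call was lost without replicate 1 of control, the high sample, where the difference was -1.71 with an adjusted p of 0.0544, and with the samples numbered 2 and 3 alone it was -1.62 (adjusted p = 0.0609 by limma). At 4 h, RANKL samples had 15.6, 5.56 and 2.69 FPKM and overlapped control, with a log2 difference of -0.95 (adjusted p = 1.0 by limma). Granulocyte precursor markers fell in RANKL 3 d as well, as given above, and their part in the *Socs1* result was not tested.

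*Cish* (chromosome 9, 107296026 to 107302784, plus strand, 3 exons), a target and inhibitor of STAT5 signalling, was the scarcest of the 10 in control at 2.51, 1.25 and 1.49 FPKM. LPS 4 h samples had 27.2, 11.4 and 9.64 FPKM, all above control, with a log2 difference of 3.03 (SE 0.43, adjusted p = 4.96e-05 by limma). It was back at 1.70, 1.504 and 1.66 FPKM at 3 d, inside the control range, with a log2 difference of -0.05 (adjusted p = 0.946 by limma) and of -0.06 without replicate 3. RANKL samples had 1.71, 0.793 and 0.472 FPKM at 4 h and 1.27, 1.01 and 0.727 at 3 d, with log2 differences of -0.87 and -0.71 that did not pass the test (adjusted p = 1.0 and 0.219 by limma). Its exons share 740 bases with the opposite-strand entries *Gm17040* and *Gm17041*, so part of its reads may belong to these.

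The SOCS genes were highest in replicate 1 of control, RANKL 4 h and LPS 4 h. In control, *Socs1* was 3.44 times, *Socs3* 2.20 times and *Cish* 1.83 times as high in replicate 1 as in the mean of replicates 2 and 3. In RANKL 4 h the ratios were 3.77, 1.58 and 2.70, and in LPS 4 h 1.42, 1.12 and 2.59. All 9 ratios were above 1, and no share of all genes with this arrangement is given. Samples of one number deviated together over 9486 genes in these 3 groups, so the 9 ratios are not separate observations. In RANKL 3 d the ratios were 0.732, 0.949 and 1.47, and in LPS 3 d 1.34, 0.980 and 1.07. *Ifnb1*, the gene of interferon beta, was also highest in replicate 1, with 3.87, 1.89 and 0.649 FPKM in control, 4.22, 0.695 and 0.449 in RANKL 4 h and 50.5, 21.2 and 12.6 in LPS 4 h. *Cxcl10*, an interferon target, had 114, 24.1 and 11.8 FPKM in control. The labels do not say what samples of one number share, and the part of interferon in these levels was not tested. Other genes also stood high in replicate 1. *Dusp2* was at 1.06, 1.16 and 1.83 times the mean of replicates 2 and 3 in control, RANKL 4 h and LPS 4 h. The 5 mast cell and basophil markers summed to 66.5, 23.5 and 24.0 FPKM in the control samples, 52.5, 19.1 and 13.2 in RANKL 4 h and 53.7, 20.7 and 12.6 in LPS 4 h. Granulocyte precursor markers in replicate 1 were at 1.66 to 2.17 times the mean of the others. Their control sums were 24340, 7912 and 21340 FPKM, so replicate 3 was near replicate 1 and replicate 2 was low. The part of these cells in the SOCS levels was not tested. *Tnip1* in replicate 1 was 0.992 times the mean of the other two in control, 0.998 times in RANKL 4 h and 1.001 times in LPS 4 h.

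**Figure D2:**
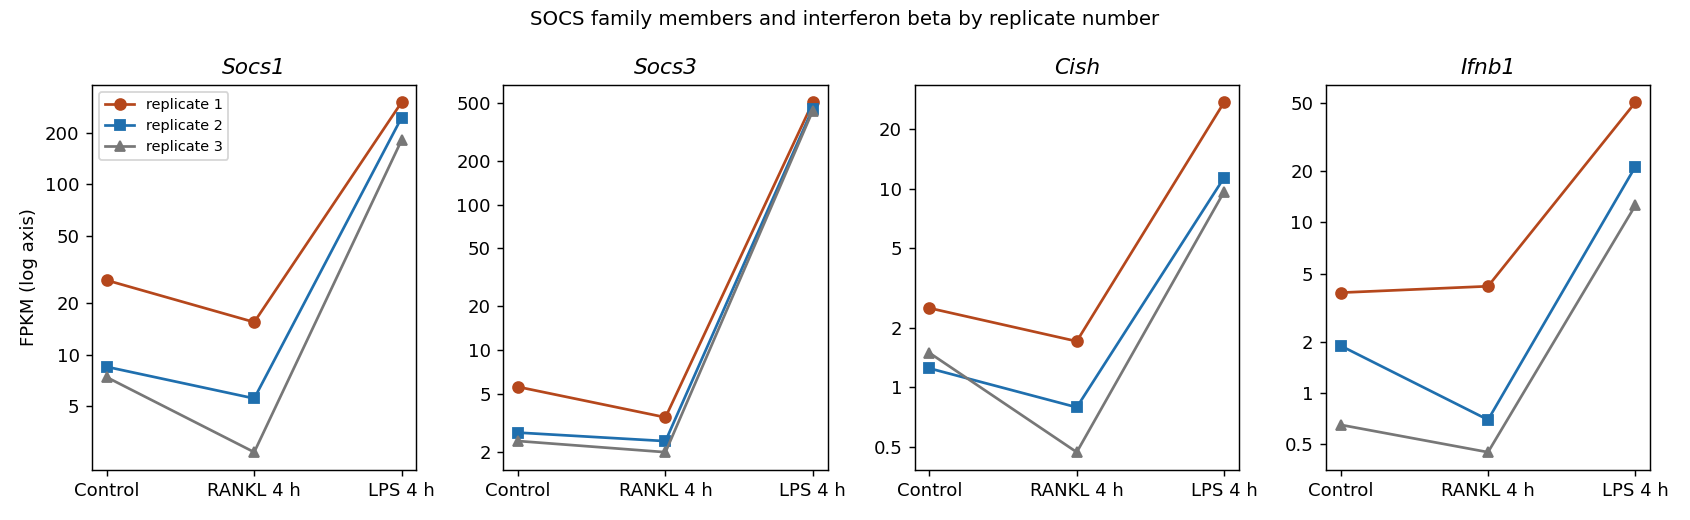
FPKM (log axis) of *Socs1*, *Socs3*, *Cish* and *Ifnb1* in control, RANKL 4 h and LPS 4 h, with lines that join samples of the same replicate number. Replicate 1 is the highest of the 3 in every group shown, and its ratio to the mean of the other two runs from 1.12 for *Socs3* in LPS 4 h to 3.77 for *Socs1* in RANKL 4 h among the SOCS genes.

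*Dusp1* (chromosome 17, 26505590 to 26562128, minus strand, 4 exons) encodes MKP-1, which inactivates p38 and JNK. Its promoter is shown for a full cAMP response element, TGACGTCA, in capitals, a motif present in 1.79% of all windows and in no other inhibitor. The window from RefSeq is chr17:26508423-26508722 on GRCm38.p6, minus strand.
Dusp1: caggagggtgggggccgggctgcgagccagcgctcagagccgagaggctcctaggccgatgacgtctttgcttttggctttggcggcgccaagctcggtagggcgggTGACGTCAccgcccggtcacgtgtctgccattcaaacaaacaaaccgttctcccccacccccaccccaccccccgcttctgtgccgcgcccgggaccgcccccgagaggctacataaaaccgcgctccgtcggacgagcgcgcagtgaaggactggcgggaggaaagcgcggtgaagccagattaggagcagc
The match began at -143, and its core TGACG also occurred at -191. This core was found in 5 of the 10 inhibitors and in 20.81% of all windows. Control samples of *Dusp1* had 20.6, 17.99 and 23.6 FPKM, LPS 4 h samples 193, 174 and 221, and LPS 3 d samples 77.9, 72.8 and 53.2. The 3 groups did not overlap, and log2 differences from control were 3.24 (SE 0.20, adjusted p = 3.96e-08 by limma) at 4 h and 1.70 (SE 0.20, adjusted p = 4.48e-05) at 3 d, or 1.86 at 3 d without replicate 3. RANKL 4 h samples had 26.9, 25.9 and 44.7 FPKM, all above control, and the log2 difference of 0.61 did not pass adjustment (unadjusted p = 0.0095, adjusted p = 0.578 by limma). RANKL 3 d samples had 16.7, 17.8 and 20.3 FPKM, overlapping control. The gene shares 11 exonic bases with the opposite-strand gene *Ergic1*.

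*Dusp2* (chromosome 2, 127336159 to 127338376, plus strand, 4 exons), which encodes the nuclear phosphatase PAC-1, fell furthest between 4 h and 3 d of LPS. Control samples had 3.11, 2.96 and 2.90 FPKM and LPS 4 h samples 170.0, 124 and 61.9, a log2 difference of 5.14 (SE 0.27, adjusted p = 1.03e-08 by limma) and a 39.6-fold ratio of means. After 3 d, LPS samples had 1.74, 2.43 and 1.83 FPKM and RANKL samples 1.80, 1.69 and 1.90, and all 6 were below the lowest control sample. Neither difference passed the test, with log2 values of -0.57 for LPS (adjusted p = 0.116 by limma, and -0.52 without replicate 3) and -0.71 for RANKL (adjusted p = 0.0628). On the centred scale, the RANKL 3 d difference was -0.93 and passed (adjusted p = 0.023 by limma). RANKL 4 h samples overlapped control at 3.18, 2.53 and 2.93 FPKM.

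**Figure D3:**
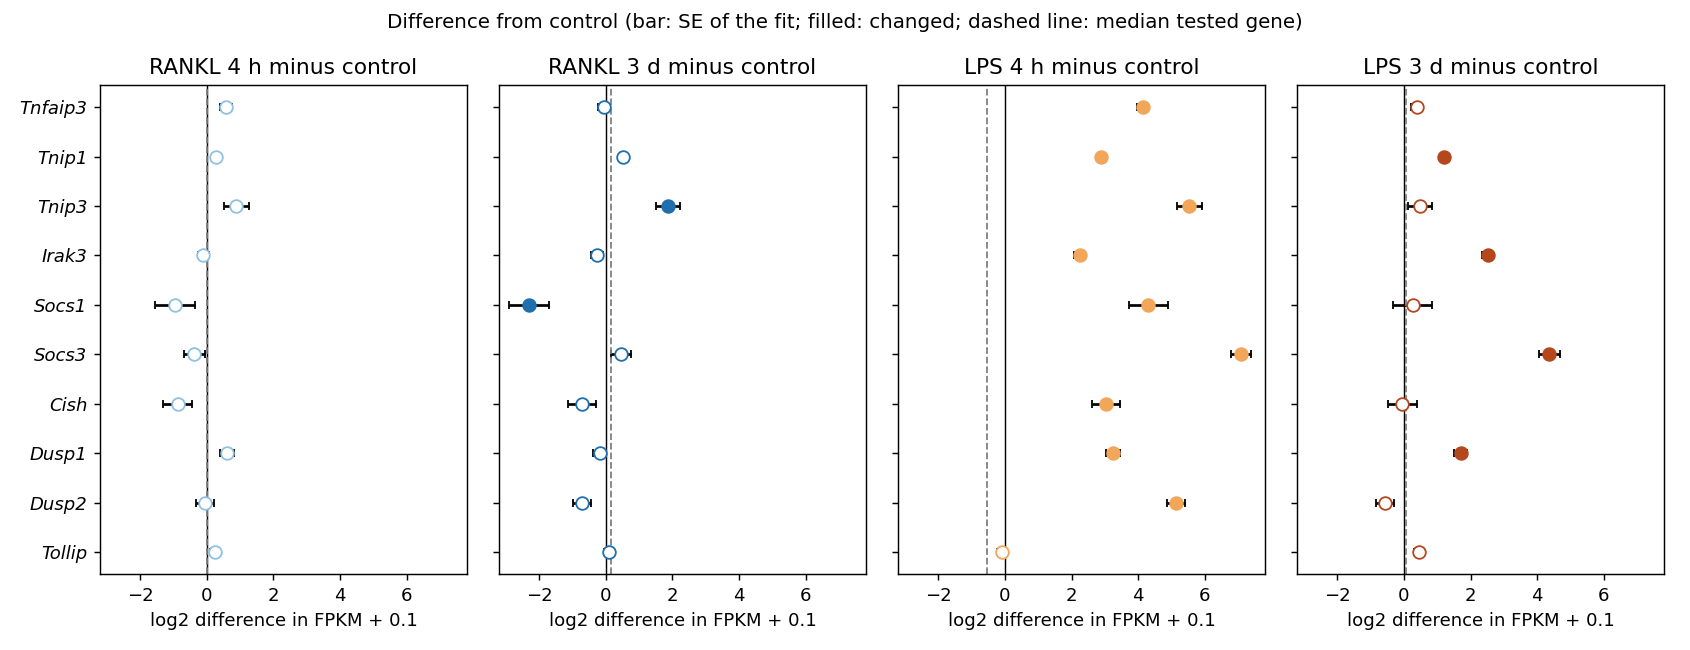
Log2 difference of each inhibitor from control in FPKM + 0.1, with the SE of the fit, for the 4 stimulated groups; filled points are changed genes and the dashed line is the median tested gene. LPS 4 h has 9 filled points, from 2.24 (*Irak3*) to 7.09 (*Socs3*), LPS 3 d has 4 and RANKL 3 d has *Tnip3* and *Socs1*.

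The weak RANKL 4 h response was examined gene by gene because no inhibitor passed adjustment. All 3 samples lay above all 3 control samples for 4 of the 10 (*Tnfaip3*, *Tnip1*, *Tnip3* and *Dusp1*), an arrangement shown by 6.05% of all tested genes. At an unadjusted p under 0.05 and the same folds, *Tnip3* and *Dusp1* were higher and none was lower, where 1.21% of all genes were called higher and 1.35% lower. Limma voom on fragments recovered from the FPKM values called none of the 10.

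The direct comparison of the 2 stimuli at 4 h put 9 of 10 inhibitors lower with RANKL than with LPS (8.98% of all genes were lower), from a log2 difference of -2.34 for *Irak3* to -7.46 for *Socs3* (adjusted p = 1.24e-07 and 1.33e-09 by limma). *Tollip* was the exception, with a log2 difference of 0.34 (adjusted p = 0.0492 by limma) under the fold threshold and of -0.23 on the centred scale. At 3 d, 5 inhibitors were lower with RANKL (12.8% of all genes): *Socs3* by -3.90, *Irak3* by -2.77, *Socs1* by -2.56, *Dusp1* by -1.88 and *Tnip1* by -0.67 on the log2 scale, with adjusted p of 0.00322 or less by limma. *Tnip3* was the 1 inhibitor higher with RANKL at 3 d (23.3% of all genes), by 1.4 (SE 0.37, adjusted p = 0.00732 by limma). Without replicate 3 of LPS 3 d these 6 kept their calls, and *Tnfaip3* was lower as well, with a log2 difference of -0.66 (adjusted p = 0.00218 by limma). *Cish*, *Dusp2* and *Tollip* were not called in either case.

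The time course separated the inhibitors into those that returned and those that persisted. From 4 h to 3 d of LPS, 8 of 10 fell (13.9% of all genes), *Dusp2* to 1.69% of its mean at 4 h, *Tnip3* to 2.91%, *Socs1* to 6.21%, *Tnfaip3* to 7.58% and *Cish* to 10.1%. The fall was less complete for *Socs3*, which kept 15.1%, *Tnip1* with 31.1% and *Dusp1* with 34.7%, the genes that were still above control. Their log2 differences between the times ran from -1.54 (SE 0.20) for *Dusp1* to -5.72 (SE 0.27) for *Dusp2*, with adjusted p of 4.61e-05 or less by limma. *Irak3* did not fall, at 122% of its 4 h mean (log2 difference 0.27, adjusted p = 0.178 by limma), although on the centred scale the difference was -0.38 (adjusted p = 0.107). *Tollip* was at 148% of its 4 h mean, a log2 difference of 0.54 (adjusted p = 0.00347 by limma) under the fold threshold on the deposited scale and of -0.10 on the centred scale. Without replicate 3 of LPS 3 d the *Tollip* difference was 0.72 and counted as changed (adjusted p = 7.9e-05 by limma), and the 8 falls held.

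From 4 h to 3 d of RANKL, *Tnfaip3* and *Dusp1* fell by 0.64 and 0.79 on the log2 scale (adjusted p = 0.0143 and 0.0109 by limma), 2 of 10 where 6.83% of all genes fell. Without replicate 3 of RANKL 4 h, their highest sample, both lost the call on the fold threshold, with differences of -0.58 and -0.53 (adjusted p = 0.049 and 0.0403 by limma). *Tnfaip3* also lost it without replicate 1 of RANKL 3 d (-0.59, adjusted p = 0.0481 by limma). *Tnip3* was called higher without that sample (1.44, adjusted p = 0.00663 by limma), *Socs1* lower without replicate 3 of RANKL 4 h (-1.94, adjusted p = 0.0295) and *Socs3* higher without replicate 1 of RANKL 4 h or replicate 3 of RANKL 3 d (1.05 and 1.12, adjusted p = 0.0442 and 0.0231). Replicate numbers paired the samples of these groups only weakly (r of 0.16 to 0.25), as described under the processing. The block was fitted over all samples, also those of LPS 3 d, which the numbers did not pair. With the replicate number as a block, 5 inhibitors changed: *Tnip3* was also higher at 3 d (log2 difference 0.98, adjusted p = 0.0165 by limma), *Socs3* higher (0.83, adjusted p = 0.0214) and *Socs1* lower (-1.36, adjusted p = 0.022). No share of all genes is given for the fit with the block or for those without a replicate. These added calls therefore have no background of their own. In the fit of all samples without the block, 1930 tested genes were higher at 3 d and 802 lower.

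Levels over all 15 samples show which inhibitors shared a pattern, as a description of log2(FPKM + 0.1) values that share their groups. The closest pair was *Tnfaip3* and *Dusp2* (Pearson r = 0.974), followed by *Tnip1* with *Socs3* (0.945) and *Socs1* with *Cish* (0.944). *Irak3* ranged among the other induced genes from r = 0.416 with *Tnip3* and 0.494 with *Dusp2* to 0.851 with *Dusp1* and 0.904 with *Socs3*, and *Tollip* had r of -0.498 to 0.149 with the rest. Over 9486 genes averaging 1 FPKM or more, those most like an inhibitor were *Il19* for *Tnfaip3* (0.98), *Rab11fip1* for *Tnip1* (0.987), *Kpna3* for *Tnip3* (0.976), *Fpr1* for *Irak3* (0.981) and *Senp6* for *Tollip* (0.935). For the SOCS genes they were *Slfn2* with *Socs1* (0.993), *N4bp1* with *Socs3* (0.987) and *Arid5a* with *Cish* (0.973), and for the phosphatases *Irak2* with *Dusp1* (0.982) and *Il27* with *Dusp2* (0.988). *Nfkb1*, the gene of the p50 subunit precursor, was the third most like *Tnip3* (0.97), and *Nos2* and *Il1b* followed *N4bp1* for *Socs3* (0.986 and 0.98).

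The 3′ untranslated regions of the inhibitors differed in AU-rich elements, sequences known to shorten the life of many cytokine mRNAs. The nonamer TTATTTATT occurred in the annotated 3′ untranslated region of *Tnfaip3* (1 copy), *Cish* (2) and *Dusp1* (2), 3 of the 10, and in 7.0% of 11111 tested genes with such a region. The pentamer ATTTA was most frequent in *Dusp2*, at 6.88 per kb, and *Dusp1*, at 5.80 per kb, beside a median of 1.15 per kb over all genes. *Tnip1*, *Tnip3* and *Socs1* had no copy, and *Irak3* had 1 in 1067 bases. *Dusp2*, with the most copies per kb, and *Tnip3*, with none, were the members that fell furthest between 4 h and 3 d of LPS. The life of the mRNAs was not measured, and the part of these elements in the falls was not tested.

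The counts of the related lists that follow are to be read beside the shares of all tested genes given above: 8.43% higher and 39.7% lower in LPS 4 h, 16.6% and 7.54% in RANKL 3 d, and 13% and 14.4% in LPS 3 d. These shares come from the fit of all 15 samples on the deposited scale. The centred counts of all genes in LPS 4 h and RANKL 3 d are given above. No share is given for the fit without replicate 3 of LPS 3 d. Of 26 further brakes on TLR, IL-1 receptor and NF-κB signalling, 11 were higher and 8 lower in LPS 4 h, and 15 and 4 on the centred scale. *Nfkbia*, which encodes the NF-κB inhibitor IκBα, went from 43.4 ± 9.5 FPKM (SD, n = 3) to 716 ± 107, *Nfkbie* from 7.05 ± 3.05 to 95.0 ± 30.1 and *Il1rn*, the IL-1 receptor antagonist, from 70.0 ± 38.7 to 785 ± 174. In RANKL 3 d, 6 of the 26 were higher and 3 lower, a split that turned to 3 and 6 on the centred scale, and *Nfkbie* (24.8 ± 6.5 FPKM), *Nfkbia* (135 ± 38) and *Traf3* (11.1 ± 1.1) were higher on both. *Il1rn* (19.1 ± 8.1 FPKM) and the stress-induced repressor *Atf3* (37.5 ± 6.6, from 122 ± 12 in control) were lower. LPS 3 d had 6 higher and 4 lower, or 11 and 2 without its replicate 3, with *Nfkbia* still at 162 ± 32 FPKM.

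Of 14 further SOCS proteins and JAK-STAT inhibitors, 3 were higher and 4 lower in LPS 4 h (4 and 3 centred), with *Ptpn2*, a phosphatase of JAKs and STATs, at 7.78 ± 0.66 FPKM against 3.75 ± 0.46 in control and *Socs6* at 4.09 ± 0.30 against 9.89 ± 1.61. RANKL 3 d changed none of them (2 lower on the centred scale), and LPS 3 d raised *Socs7* and *Socs4* and lowered *Ptpn6*, which encodes the phosphatase SHP-1, from 185 ± 8.6 to 104 ± 8.0 FPKM (2 higher and 2 lower without replicate 3). The 13 further MAP kinase phosphatases and ERK brakes split in LPS 4 h into 3 higher and 5 lower (4 and 4 centred). *Dusp16*, a phosphatase of JNK and p38, went from 2.94 ± 0.18 to 36.6 ± 2.5 FPKM, while the ERK phosphatases *Dusp6* (47.9 ± 6.4 to 7.49 ± 2.95) and *Dusp7* (26.7 ± 7.5 to 5.88 ± 0.71) fell on both scales. RANKL 3 d raised 4 of these 13 and lowered none (3 and none centred), among them *Dusp9* from 0.434 ± 0.110 to 4.92 ± 1.42 FPKM and *Spry1* from 0.518 ± 0.108 to 4.61 ± 2.27. In LPS 3 d, 3 of the 13 were higher, with *Dusp16* at 15.2 ± 4.8 FPKM, and 2 lower (4 and 2 without replicate 3). RANKL 4 h changed no gene of any of the 6 related lists on either scale. On the deposited scale 0.111% of all tested genes were higher there and 0.00852% lower, so this count says little about the lists.

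The signals that the inhibitors answer to changed too. All 16 cytokines of the list were higher in LPS 4 h on both scales, with *Il6* at 272 ± 8.9 FPKM from 0.559 ± 0.208 and *Il1b* at 1103 ± 193 from 3.99 ± 2.71, and 9 of 16 were still higher at 3 d (7 centred) with 1 lower, or 11 and 1 without replicate 3. In RANKL 3 d, 7 of 16 cytokines were lower and 1, *Lif*, higher (9 and 1 centred), and *Ifnb1* was at 0.0868 ± 0.0398 FPKM from 2.14 ± 1.62, a log2 difference of -3.30 (adjusted p = 0.00435 by limma). The lower cytokine in LPS 3 d was *Ifnb1* too (log2 difference -3.95, adjusted p = 0.00104 by limma), where *Socs1* was not called different from control. The part of interferon beta in the *Socs1* levels was not tested. Of 33 signalling proteins, 9 were higher and 5 lower in LPS 4 h (16 and 2 centred), with the LPS co-receptor gene *Cd14* at 751 ± 204 FPKM from 39.2 ± 5.3 and *Tlr4* at 8.90 ± 1.10 from 20.3 ± 2.5. In RANKL 3 d 4 were higher and 3 lower (1 and 6 centred), and the adaptor gene *Myd88* fell from 57.9 ± 6.9 to 30.5 ± 2.1 FPKM. In LPS 3 d 5 were higher and 2 lower, or 9 and 2 without replicate 3. Of 16 receptors upstream of SOCS proteins, 3 were higher and 5 lower in LPS 4 h (8 and 2 centred), 3 and 1 in RANKL 3 d (1 and 2 centred) and 4 and 2 in LPS 3 d (4 and 3 without replicate 3). *Il6ra* fell in LPS 4 h, from 17.4 ± 4.0 to 3.80 ± 0.62 FPKM, where *Socs3* and *Il6* were highest, and the M-CSF receptor gene *Csf1r* rose in RANKL 3 d from 198 ± 16 to 325 ± 24 FPKM, though not on the centred scale.

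**Figure D4:**
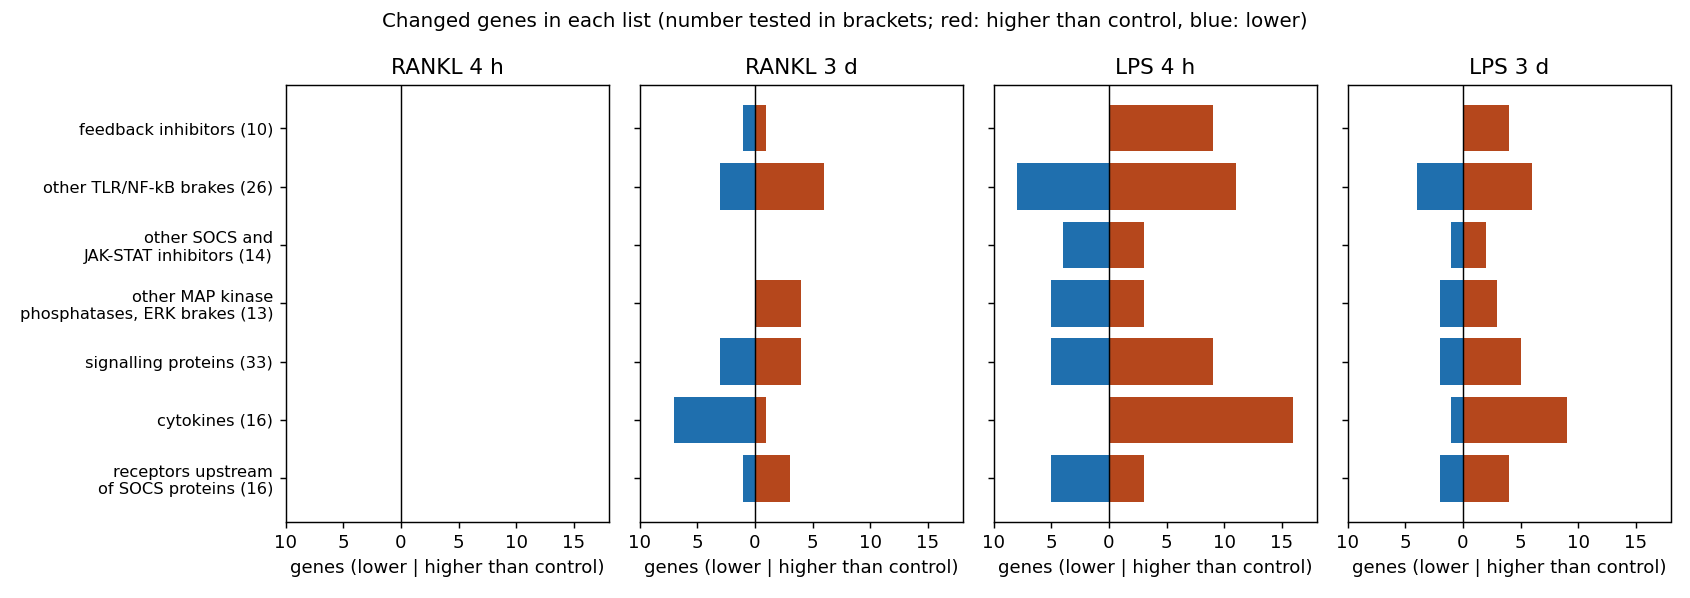
Number of changed genes in the inhibitors and 6 related lists (the number tested is in brackets), higher than control to the right and lower to the left, on the deposited scale. In LPS 4 h, the inhibitors (9 of 10 higher) and the cytokines (16 of 16) have changes to the right only. In RANKL 4 h no list has any, where 0.111% of all tested genes were called higher and 0.00852% lower.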

How the data were processed

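RNA-seq of BMDMs was analysed in 15 samples of 5 groups, with each sample's condition and number read from its label. The study's methods give 4 days of M-CSF at 50 ng/mL before stimulation, where the labels give 3, and 72 h for the late time. They describe BMDMs from mice of 4 to 8 weeks for the *Zmat1* genotypes, and the labels give no age for these samples. The authors deposited FPKM values for every gene in each sample, made with StringTie and Ballgown. The submitters' processing notes name StringTie and the builds GRCm38.p4 and mm10. The aligner and annotation are not given in the sources used here. One incomplete entry was dropped, and genes that come after it in alphabetical order were not analysed here.

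On the log2(FPKM + 0.1) scale, all 5 groups were fitted together in limma 3.58.1 under R 4.3.3 (lmFit, contrasts.fit, eBayes with a trend). The 11743 genes averaging 0.1 FPKM or more were tested, with Benjamini-Hochberg adjustment. The fold thresholds of 1.5 and 0.66 are those of the study, which used an unadjusted p. For single genes, an exact permutation test of 3 samples against 3 cannot give a p below 0.1, so none is reported. Fold changes on this scale understate those of low genes. For 14485 genes a step was found of which the FPKM values were whole multiples, and fragments were recovered from it. All values of these genes came within 0.01 of a whole number. Genes without such a step were left out beforehand, so this share was fixed by the selection and is no check of the recovery. These fragments gave the depths and entered limma voom as an alternative. Fragments of amplified libraries are not independent molecules, so counting error is a lower limit. Both scripts were tested on simulated data. Replicates of a group differed by 6.88 to 46.3 times the sampling noise (median chi-square over genes), so no pair within a group was one library deposited under 2 names.

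Samples with the same replicate number deviated together over 9486 genes between RANKL 4 h and control (r = 0.84, 0.71 and 0.74 for numbers 1, 2 and 3), LPS 4 h and control (0.62, 0.62 and 0.44), RANKL 4 h and LPS 4 h (0.69, 0.67 and 0.55), RANKL 3 d and control (0.32, 0.14 and 0.18) and RANKL 3 d and RANKL 4 h (0.24, 0.16 and 0.25), so the numbers pair these groups, and the pairing comes from the data since the labels do not state it. LPS 3 d was not paired with control, RANKL 3 d or LPS 4 h (r of -0.23 to 0.18). It is still part of the fits with the replicate number as a block, which cover all 15 samples. The r of RANKL 3 d with control and with RANKL 4 h, at 0.14 to 0.32, were low as well. The 10 inhibitors, the related lists and the marker lists were chosen with earlier results of these data known. Named from the related lists were up to 3 of the largest rises and falls per comparison with control among changed genes averaging 1 FPKM or more, and for each inhibitor the genes with the highest Pearson r. Gene positions are from GENCODE M21 (GRCm38), and promoter windows and their sequences from RefSeq (GRCm38.p6), where all 10 inhibitors matched by symbol. Motifs were searched on both strands. Python 3.11.15, numpy 2.4.6, pandas 2.3.3 and matplotlib 3.10.9 served for the rest.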

Additional observations from a re-analysis of the deposited data

Results flagged for a closer look

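Levels differed between 4 h and 3 d for 8 inhibitors under LPS and 2 under RANKL, by limma's test of 3 d against 4 h. Control cancels out of this test. The difference holds both the longer stimulus and the longer culture, which cannot be told apart. Under LPS the log2 difference was -5.72 for *Dusp2*, -5.07 for *Tnip3*, -4.04 for *Socs1*, -3.76 for *Tnfaip3*, -3.08 for *Cish*, -2.73 for *Socs3*, -1.69 for *Tnip1* and -1.54 for *Dusp1*. Under RANKL it was -0.79 for *Dusp1* and -0.64 for *Tnfaip3*. Each of the 8 LPS differences was also found on the scale centred on the median gene, where they were larger, from -2.19 for *Dusp1* to -6.36 for *Dusp2*.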

How the results depend on the processing

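Of 19 alternatives for each comparison, the count of changed inhibitors stayed at 9 under all of them in LPS 4 h against control, at 9 or 10 in RANKL 4 h against LPS 4 h, and at 8 or 9 in LPS 3 d against LPS 4 h. It was 4 to 6 in LPS 3 d against control and 5 to 7 in RANKL 3 d against LPS 3 d. In RANKL 4 h against control it was 0 except at unadjusted p, where it was 2. In RANKL 3 d against control it was 1 to 3: 2 changed, 3 under some alternatives (with *Dusp2* on the centred scale, with *Tnip1* at equal sums) and 1 with the samples numbered 2 and 3 alone, an alternative added once the values were known (chosen after seeing the data). The least stable count was that of RANKL 3 d against RANKL 4 h: 2 changed, 5 with the replicate block, 6 at unadjusted p, 1 with the samples numbered 2 and 3 alone, and 1 to 3 without one replicate. The replicate block changed no other count by more than 1.5 times. Apart from fewer samples in the fit, the causes were not tested.

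Directions turned only where the difference was small, and none of those turned passed the test and the fold threshold. *Tollip* turned on the centred scale to -0.13 in RANKL 3 d and 0.48 in LPS 4 h against control, -0.23 in RANKL 4 h against LPS 4 h and -0.10 in LPS 3 d against LPS 4 h, and with voom to -0.07, 0.41 and -0.16 in the first 3. *Irak3* in LPS 3 d against LPS 4 h turned to -0.38 on the centred scale and -0.26 with voom, and *Cish* in RANKL 3 d against RANKL 4 h to -0.068 on the centred scale. *Tnfaip3* in RANKL 3 d against control turned to 0.056 with FPKM rescaled to equal sums and 0.054 with the samples numbered 2 and 3, where *Cish* in LPS 3 d was at 0.20. Leaving out one replicate at a time, the values that turned ran from -0.60 to 3e-04 for *Socs3* and from -0.13 to 0.029 for *Dusp2* in RANKL 4 h against control, from -0.25 to 0.23 for *Cish* and from -0.089 to 0.85 for *Socs1* in LPS 3 d against control, from -0.22 to 0.0076 for *Dusp2* in RANKL 3 d against LPS 3 d and from -0.23 to 0.60 for *Cish* in RANKL 3 d against RANKL 4 h. Of the other single values, 1456 kept their call, 34 gained and 9 lost it. *Socs1*, *Cish* and *Dusp2* rest on the fewest fragments (41 to 56 in their lowest samples), so counting error weighs most on these.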
